A study of Gallus gallus with 6 samples.

Results

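The insulin-like growth factor (IGF) system of chicken skin was followed through 10 genes, chosen by their NCBI gene symbols. They were the ligands IGF1 and IGF2, the receptor gene IGF1R, the binding protein genes IGFBP1, IGFBP2, IGFBP3, IGFBP4, IGFBP5 and IGFBP7, and IGF2BP3, which encodes an RNA binding protein. All 10 were found among the 18315 genes of the expression files, and 9 of them reached the mean of 0.1 FPKM that was required for testing. FPKM is the number of fragments mapped to a gene, scaled by exon length and by how many reads of that library were mapped. The birds were Ma-Huang chickens, a broiler line with yellow skin, of the same age and kept under the same feeding. Cloacal skin freed of subcutaneous fat was sequenced from 3 birds of high cloacal yellowness in life (s_deep) and from 3 of low yellowness (s_light), with 1 library per bird and no treatment. Libraries are named by group and wing number, as s_deep6402, s_deep6403 and s_deep7858, and s_light6575, s_light6971 and s_light8275. The birds were picked from the flock for high or low cloacal yellowness, and each skin piece held all of its cell types.

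IGF1 and IGF2 are small secreted hormones that resemble insulin. Both act through the receptor tyrosine kinase encoded by IGF1R, which signals through the PI3K to TOR branch and the MAPK branch of growth control. Binding proteins hold most of the IGF outside cells, lengthen its life in blood and tissue fluid, and release it when proteases cut them. In skin, IGF made by dermal cells is known to act on keratinocytes and on the growth of follicles.

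Summed over all genes, the libraries held 471488 to 488777 FPKM. Read counts per gene were not used, so that the number of reads behind a value is unknown, though the paper reports valid reads for each group. Genes of the epidermis and dermis were well covered in every library, with summed FPKM of at least 1774 for 5 keratinocyte genes and at least 2521 for 6 fibroblast genes. Genes of the W chromosome, which only hens carry, set 2 libraries apart from the other 4. HINTW was read at 0.06 and 0.17 FPKM in s_deep6402 and s_deep6403 and at between 122.25 and 205.78 FPKM in s_deep7858 and the s_light libraries, and 21 of 29 genes placed on W showed such a pattern around 1 FPKM. By these genes s_deep6402 and s_deep6403 were cocks and the other 4 birds hens, though the labels give no sex. The flock of the study held both sexes. Every s_light bird was high in W genes, so sex is mixed into every comparison of the groups. For the 2 birds low in W genes, yellowness and sex cannot be told apart. The bird s_deep6403 was classed as nearly white from photographs in the study's supplement. Those photographs grade the colour of the skin of the whole carcass, whereas the groups were picked by the yellowness of cloacal skin. The 2 measures differ, and the classes of the other birds are not given here.

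The skin held far more RNA for binding proteins than for ligands. IGFBP7, whose product binds IGFs only weakly and is known from vessels and stroma, was read at between 324.8 and 560.69 FPKM. IGFBP4, whose product restrains IGFs until the protease PAPPA cuts it, was read at between 287.8 and 476.71 FPKM. Both stood above 99% of all genes in mean FPKM (99.2% for IGFBP7 and 99.1% for IGFBP4). In order of mean FPKM over the 6 libraries there followed IGFBP2 with 60.5, IGF2 with 21.0, IGFBP5 with 19.4, IGFBP3 with 9.55, IGF1R with 6.01, IGF2BP3 with 2.88, IGF1 with 0.138 and IGFBP1 with 0.0867 FPKM.

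**Figure D1:**
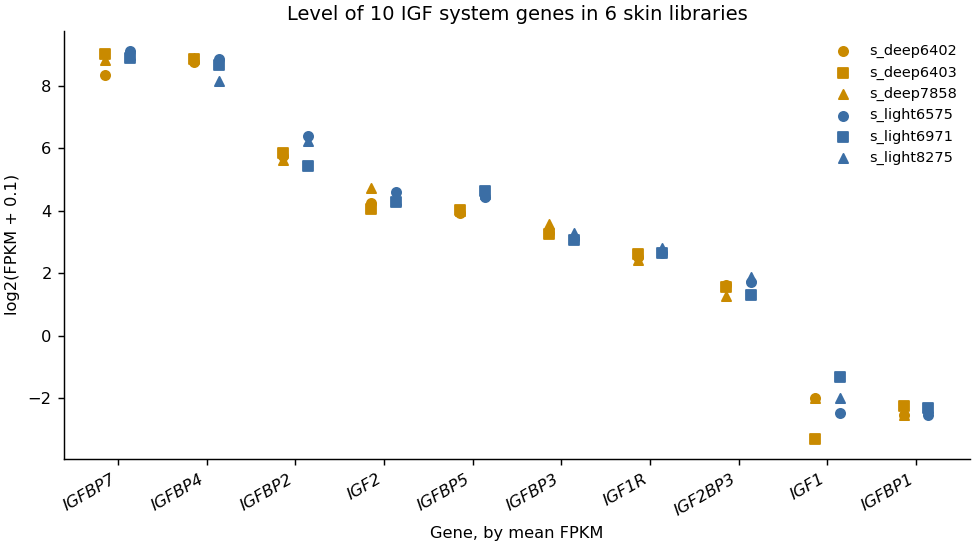
Level of each of the 10 genes as log2(FPKM + 0.1) (y axis), ordered by mean FPKM (x axis), with 1 point per library, s_deep in ochre and s_light in blue. IGFBP7 and IGFBP4 stand at the top and IGF1 and IGFBP1 at the bottom in every library.

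Neighbours in this order were compared within libraries on the log2(FPKM + 0.1) scale, with an exact two-sided sign-flip permutation test over the 6 libraries. The order was itself taken from these 6 libraries, so the pairs and their direction were not set beforehand. The p values thus describe how steadily the libraries shared a step and give no independent support for the order. For 6 of the 9 neighbouring pairs the first gene was the higher in 6 of 6 libraries (exact permutation p = 0.0313, the smallest that 6 libraries allow, adjusted p = 0.0469 over the 9 pairs, Benjamini-Hochberg). The steps between them had mean log2 differences from 0.66 (IGFBP3 over IGF1R) to 3.74 (IGF2BP3 over IGF1). The other 3 pairs did not differ beyond their spread. IGFBP7 exceeded IGFBP4 in 4 of 6 libraries, by 0.16 ± 0.41 on the log2 scale (SD, n = 6, exact permutation p = 0.438, adjusted p = 0.492). IGF2 exceeded IGFBP5 in 4 of 6 (0.12 ± 0.39, exact permutation p = 0.562, adjusted p = 0.562, n = 6). For IGF1 over IGFBP1 it was 5 of 6 (0.24 ± 0.71, exact permutation p = 0.438, adjusted p = 0.492, n = 6).

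The 6 binding protein genes together summed to between 840 and 1143 FPKM in a library, against between 16.6 and 26.9 FPKM for both ligands. Their sum was between 37.4 and 64.9 times the ligand sum, lowest in s_deep7858 and highest in s_deep6403, so both extremes were s_deep libraries. IGFBP7 and IGFBP4 made up between 87.9% and 92.4% of the binding protein sum. IGFBP7 alone, whose product binds IGFs only weakly, made up between 38.6% (s_deep6402) and 56.0% (s_light8275). The sum is therefore not a measure of IGF binding. The balance of these abundant transcripts varied from bird to bird. The ratio of IGFBP7 to IGFBP4 FPKM was 0.743 in s_deep6402, 1.13 in s_deep6403 and 0.948 in s_deep7858, beside 1.2 in s_light6575, 1.16 in s_light6971 and 1.75 in s_light8275. By this ratio every s_light bird lay above every s_deep bird, though the lowest s_light value was close to that of s_deep6403. No test of the ratio was made, since it was taken up after its values were seen.

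**Figure D2:**
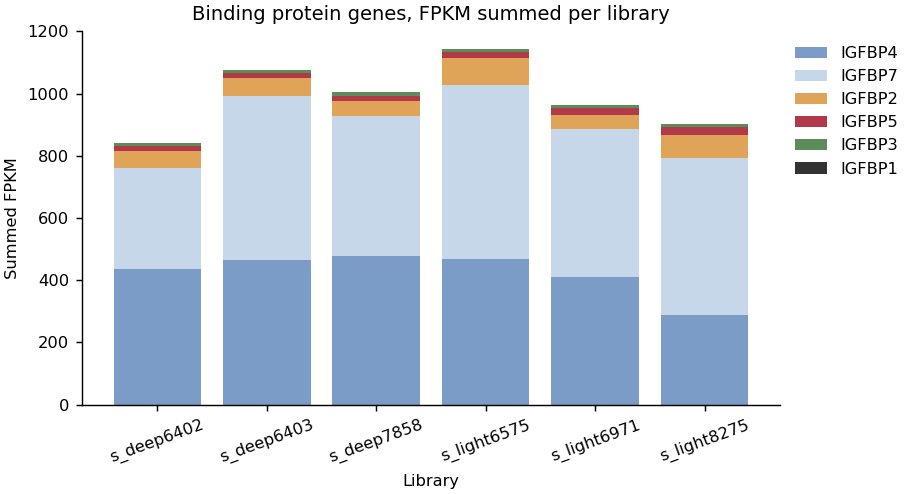
FPKM of the 6 binding protein genes stacked per library (y axis, summed FPKM from 0; x axis, library). IGFBP4 and IGFBP7 fill between 87.9% and 92.4% of each bar, and IGFBP1 is too low to be seen.

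The 15900 genes that averaged 0.1 FPKM or more were compared between the groups with limma on log2(FPKM + 0.1), with Benjamini-Hochberg adjustment over all of them. Fold changes are s_light against s_deep on that scale, which understates the change of low genes. No member passed an FDR of 0.05 together with a log2 fold change of 1 or more in either direction, a rule met by 7 of the genes tested (0.044%). None passed an adjusted p of 0.001 together with a 2-fold change, the rule of the study's own gene list, which 0 genes met in this fit (0%). An unadjusted p under 0.05 was found for 1 of the 9 tested members, IGFBP5, against 6.45% (1026) of all genes. Of the 9, 7 had a log2 fold change above 0, as had 7343 of the 15900 genes tested. The median log2 fold change of the 9 was 0.18, against -0.02 over all genes. The groups did not overlap, with s_light higher, in 2 members (IGFBP5 and IGF1R), where 5.36% of all genes showed this. No member was lower in s_light without overlap, against 5.48% of all genes. In skin pieces, fewer cells of a type and less RNA per cell cannot be told apart.

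IGFBP5 was the member with the clearest separation. Its product binds IGFs with high affinity and also binds to the extracellular matrix. IGFBP5 (Gene ID 424220, chromosome 7) was read at 15.26 FPKM in s_deep6402, 16.17 in s_deep6403 and 15.77 in s_deep7858, beside 21.45 in s_light6575, 24.7 in s_light6971 and 23.23 in s_light8275. The lowest s_light bird was thus above the highest s_deep bird, and birds of a group lay close together. The means were 15.7 ± 0.456 and 23.1 ± 1.63 FPKM (SD, n = 3 each). Its SD within groups, 0.08 on the log2 scale, was smaller than that of most genes averaging 1 FPKM or more, for which the median was 0.23; 4.31% of them had a smaller one. On the log2 scale IGFBP5 was higher in s_light by 0.55 (adjusted p = 0.281, limma; standard error, SE, 0.11), a fold of 1.46 with a 95% interval from 1.23 to 1.75. The unadjusted p of 0.0014 ranked 79th among all genes and did not survive the adjustment.

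The difference in IGFBP5 had a similar size when s_deep7858 was the main or the only s_deep bird compared. With the mean level of the 29 W genes as a covariate the log2 fold change was 0.55 (adjusted p = 0.63, limma). With s_deep6402 and s_deep6403 left out it was 0.55 as well. The W genes set those birds apart from all others, so both fits made nearly the same comparison, s_deep7858 with the s_light birds. Resting on 1 s_deep bird, these fits are not separate checks. Whether sex has a part in the IGFBP5 difference was not tested. When single libraries were dropped, the fold change of IGFBP5 stayed between 0.50 and 0.60 on the log2 scale. Its adjusted p was not below 0.21 under any alternative.

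Summed markers of several cell types differed between the groups as well, though single genes of some lists departed from their sum. No marker was listed at 0 in all libraries. Of all genes, 5.36% were higher in s_light without overlap and 5.48% were lower. The 7 smooth muscle genes summed to 1431 to 2834 FPKM in s_deep birds and to 3239 to 6385 FPKM in s_light birds, and 5 of the 7 were higher in s_light without overlap. ACTA2, the most abundant of the 7, went the other way (log2 difference -0.32). It was read at 649 to 1214 FPKM in s_deep birds and at 720 to 851 FPKM in s_light birds. LMOD1 overlapped as well, with a log2 difference of 0.09. The 6 adipocyte genes summed to 1526 to 1833 FPKM in s_deep birds and to 2220 to 2305 FPKM in s_light birds, with 3 of 6 (FABP4, PLIN1 and CIDEC) higher without overlap. ADIPOQ, an adipocyte hormone gene of the same list, was read at 814 to 1171 FPKM in s_deep birds and at 581 to 924 FPKM in s_light birds, with a log2 difference of -0.35 and overlap. The 4 leukocyte genes, of which CD74 gave nearly all, summed to 2487 to 2878 FPKM in s_deep birds and to 1767 to 2366 FPKM in s_light birds. CD74 and LCP1, 2 of the 4, were lower in s_light without overlap. PTPRC and CD3E overlapped between the groups, with log2 differences of -0.30 and -0.33. The 3 skeletal muscle genes, of which ACTA1 gave nearly all, summed to 73.6 to 234 FPKM in s_deep birds and to 593 to 2136 FPKM in s_light birds. The others of this list did not share the difference. TNNT3 overlapped, with a log2 difference of -0.23, and MYH1A was listed at 0 in every bird but s_light6575, at 0.04 FPKM. The 4 melanocyte genes summed to 3.79 to 3.85 FPKM and 4.07 to 4.53 FPKM, but 0 of 4 parted the groups, DCT gave nearly all of the sum, and MLANA and TYRP1 were listed at 0 in every s_deep bird. Fibroblast, keratinocyte and endothelium sums overlapped between the groups. Of the 5 endothelium genes, KDR was lower in s_light without overlap, at 6.91 to 8.5 FPKM against 8.9 to 12.53 FPKM in s_deep birds. The other endothelium genes overlapped. By smooth muscle sum the s_deep birds stood at 1431 FPKM in s_deep6402, 1994 in s_deep7858 and 2834 in s_deep6403, the same order as by IGFBP5. IGFBP5 itself spanned only 15.26 to 16.17 FPKM in these birds. The leukocyte and skeletal muscle sums had this order in s_deep birds too, and the adipocyte and melanocyte sums did not. Such orders of a few birds were looked up after the values were seen and were not tested. The s_light birds stood at 3239 FPKM in s_light6971, 3902 in s_light6575 and 6385 in s_light8275, an order that IGFBP5 did not have. The part of cell composition in the difference between the groups was not tested.

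**Figure D3:**
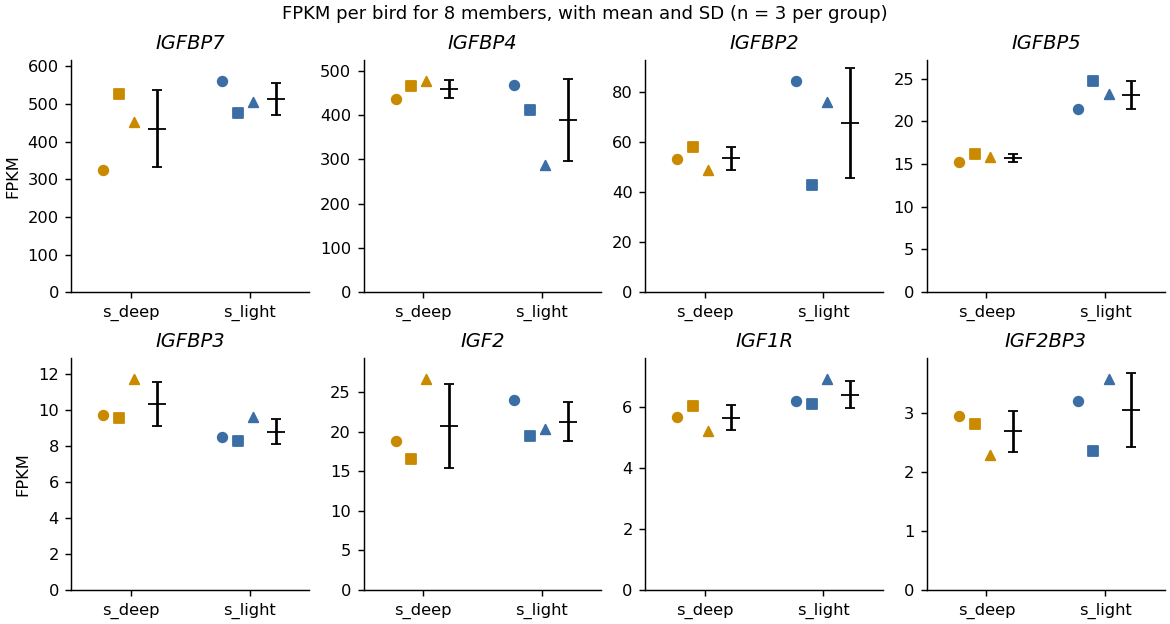
FPKM of 8 members in each bird (points; y axes from 0, a panel per gene) in s_deep (ochre) and s_light (blue), with the group mean and SD (black, n = 3). Circles, squares and triangles mark the birds of each group in the order of their wing numbers. IGFBP5 parts the groups, 15.26 to 16.17 against 21.45 to 24.7 FPKM. IGF1R parts them narrowly, 5.2 to 6.03 against 6.09 to 6.91 FPKM, and the other members shown do not.

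IGFBP2, the neighbour of IGFBP5 on chromosome 7 with 0 protein-coding genes between them in the RefSeq table, did not share its pattern. IGFBP2 was read at 53.3 FPKM in s_deep6402, 58 in s_deep6403 and 48.9 in s_deep7858, beside 84.27 in s_light6575, 42.88 in s_light6971 and 75.78 in s_light8275. The highest and the lowest of the 6 birds were both s_light, so that the groups overlapped (53.4 ± 4.55 against 67.6 ± 21.9 FPKM, SD, n = 3 each). On the log2 scale s_light was higher by 0.29 (SE 0.25, adjusted p = 0.958, limma), a fold of 1.22 with a 95% interval from 0.811 to 1.83. Without s_light6971 it was 0.58 (adjusted p = 0.399, limma), and without s_light6575 it was 0.10. The within-library log2 ratio of IGFBP5 to IGFBP2, which does not depend on how libraries are scaled, was -1.80, -1.84 and -1.63 in the s_deep birds, against -1.97, -0.79 and -1.70 in s_light (s_light minus s_deep 0.27, exact two-sided permutation test, n = 3 each, p = 0.8, adjusted p = 0.8 over 3 ratios; 0.1 is the smallest p that this design allows). The difference turned to -0.08 without s_light6971.

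The most abundant binding protein genes had fold changes of opposite sign, both within the spread of the birds. IGFBP7 was read at 324.8 FPKM in s_deep6402, 526.35 in s_deep6403 and 451.89 in s_deep7858, beside 560.69 in s_light6575, 476.46 in s_light6971 and 504.58 in s_light8275. The bird s_deep6402 was the lowest, and the log2 change of 0.27 (SE 0.20, adjusted p = 0.948, limma) was 0.07 without that library and 0.42 without s_deep6403. IGFBP4 was read at 437.24 FPKM in s_deep6402, 465.29 in s_deep6403 and 476.71 in s_deep7858, beside 468.35 in s_light6575, 410.92 in s_light6971 and 287.8 in s_light8275. Here a single s_light bird, s_light8275, stood apart from the other 5. For IGFBP4 the log2 change of -0.27 (SE 0.19, adjusted p = 0.948, limma) was -0.07 without s_light8275 and -0.42 without s_light6575. The 95% intervals of the fold were 0.87 to 1.67 for IGFBP7 and 0.603 to 1.14 for IGFBP4, so that a change of 2-fold lay outside both.

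IGFBP3 and IGFBP1 lie side by side on chromosome 2, with 0 protein-coding genes between them, and were read at very different levels. IGFBP3, whose product is the main carrier of IGF in mammalian blood, was read at 9.71 FPKM in s_deep6402, 9.54 in s_deep6403 and 11.73 in s_deep7858, beside 8.49 in s_light6575, 8.27 in s_light6971 and 9.58 in s_light8275. The groups overlapped only through s_deep6403 and s_light8275, whose values were nearly the same. The difference in IGFBP3 was -0.23 on the log2 scale (SE 0.15, adjusted p = 0.917, limma), a value that stayed below 0 under every alternative tried, between -0.42 and -0.13. IGFBP1, a liver product that responds to fasting and insulin, was read at 0.11 FPKM in s_deep6403, at 0.1 FPKM in s_light6971 and s_light8275, and at 0.07 FPKM in each of the other birds. With a mean of 0.0867 FPKM it was the member left untested. With 0.1 FPKM added to both genes, the log2 ratio of IGFBP3 to IGFBP1 within libraries was between 5.39 and 6.12. That constant is about as large as IGFBP1 itself, so the size of the ratio depends on it. The group means of the ratio differed by -0.28 (exact two-sided permutation test, n = 3 each, p = 0.3, adjusted p = 0.75 over 3 ratios). The difference was -0.34 with 0.01 FPKM added and -0.22 with 1 FPKM added.

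Of the ligands, IGF2 was the one read at a level well above the floor. IGF2, known as the growth factor of the embryo in mammals, was read at 18.83 FPKM in s_deep6402, 16.58 in s_deep6403 and 26.71 in s_deep7858, beside 24.05 in s_light6575, 19.49 in s_light6971 and 20.29 in s_light8275. The s_light range lay wholly inside the s_deep range. The difference in IGF2 was 0.06 on the log2 scale (SE 0.19, adjusted p = 0.999, limma), a fold of 1.04 with a 95% interval from 0.76 to 1.44. With the W-linked score as a covariate it turned to -0.34 (SE 0.18, adjusted p = 0.9, limma), and without s_deep6402 and s_deep6403 to -0.33. The s_deep bird left in that fit, on which the covariate fit mainly rests too, was s_deep7858. This bird had the highest IGF2 of all birds. IGF2 was between 2.75 and 5.14 times as high as IGF1R in FPKM.

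IGF1, the ligand that carries the effect of growth hormone, was listed at 0 in s_deep6403. It was read at 0.15 FPKM in s_deep6402, s_deep7858 and s_light8275, at 0.08 FPKM in s_light6575 and at 0.3 FPKM in s_light6971. The few distinct values above 0 were whole multiples of a step of 0.075 FPKM within 0.005 FPKM, the rounding of the files. Only steps near this size were tried. At this level a fold change turns on the constant added: the log2 change was 0.51 with 0.1 FPKM (SE 0.55, adjusted p = 0.984, limma), 1.37 with 0.01 FPKM and 0.10 with 1 FPKM. It turned on single libraries as well, with 0.07 without s_deep6403, 0.20 without s_light6971 and 0.78 without s_light6575. Its 95% interval ran from a fold of 0.578 to one of 3.5, so that neither a rise nor a fall within these bounds could be told from the spread of these birds. The group means of the log2 ratio of IGF1 to IGF2 within libraries differed by 0.45 (exact two-sided permutation test, n = 3 each, p = 0.5, adjusted p = 0.75 over 3 ratios). In s_deep6403, where IGF1 was listed at 0, the ratio reflects the constant added. The difference became 1.31 with 0.01 FPKM and 0.04 with 1 FPKM, and lay between 0.08 (without s_light6971) and 0.81 (without s_light6575) when single libraries were left out. IGF1 made elsewhere and carried in blood is not seen in skin RNA.

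IGF1R was read at 5.67 FPKM in s_deep6402, 6.03 in s_deep6403 and 5.2 in s_deep7858, beside 6.18 in s_light6575, 6.09 in s_light6971 and 6.91 in s_light8275. Every s_light bird was above every s_deep bird, but s_deep6403 and s_light6971 were nearly equal. The group difference was 0.18 on the log2 scale (SE 0.15, adjusted p = 0.957, limma), a fold of 1.13 with a 95% interval from 0.884 to 1.45. It stayed between 0.12 and 0.29 under the alternatives.

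IGF2BP3, which binds IGF2 mRNA among others and is best known from embryos and tumours, was read at 2.96 FPKM in s_deep6402, 2.82 in s_deep6403 and 2.3 in s_deep7858, beside 3.22 in s_light6575, 2.36 in s_light6971 and 3.59 in s_light8275. The birds s_deep7858 and s_light6971 were low and the groups overlapped. Between the groups IGF2BP3 differed by 0.16 on the log2 scale (SE 0.24, adjusted p = 0.995, limma). Leaving out single libraries moved this to between 0.04 (without s_light8275) and 0.33 (without s_light6971). Of its paralogs, IGF2BP2 was the more abundant, at between 10.17 and 15.35 FPKM, with a log2 difference of -0.04 (SE 0.17). IGF2BP1 was listed at 0 in s_deep6403 and read at 0.32 FPKM in s_deep6402 and 0.8 in s_deep7858, beside 0.9 in s_light6575, 0.82 in s_light6971 and 0.55 in s_light8275. Its log2 difference was 1.33 (SE 0.77, adjusted p = 0.888, limma), and the groups overlapped. IGF2BP1 is in the study's list of differing genes, which was selected on these libraries.

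Of 46 other genes listed for the IGF pathway, 42 were matched in the files and 41 were tested. None passed an FDR of 0.05 (limma), 1 had an unadjusted p under 0.05 with a higher level in s_light (IGFALS) and 1 with a lower level (RICTOR), beside 6.45% of all genes. The log2 fold change was above 0 for 11 and below 0 for 30, beside 7343 above and 8557 below among all 15900 genes tested. Its median was -0.07, against -0.02 over all genes. In 3 genes, IGFALS and HRAS among them, the groups did not overlap with s_light higher, and in 2 (SOS1 and RICTOR) with s_light lower. These shares, 3 and 2 of 41, can be set beside 5.36% and 5.48% of all genes.

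**Figure D4:**
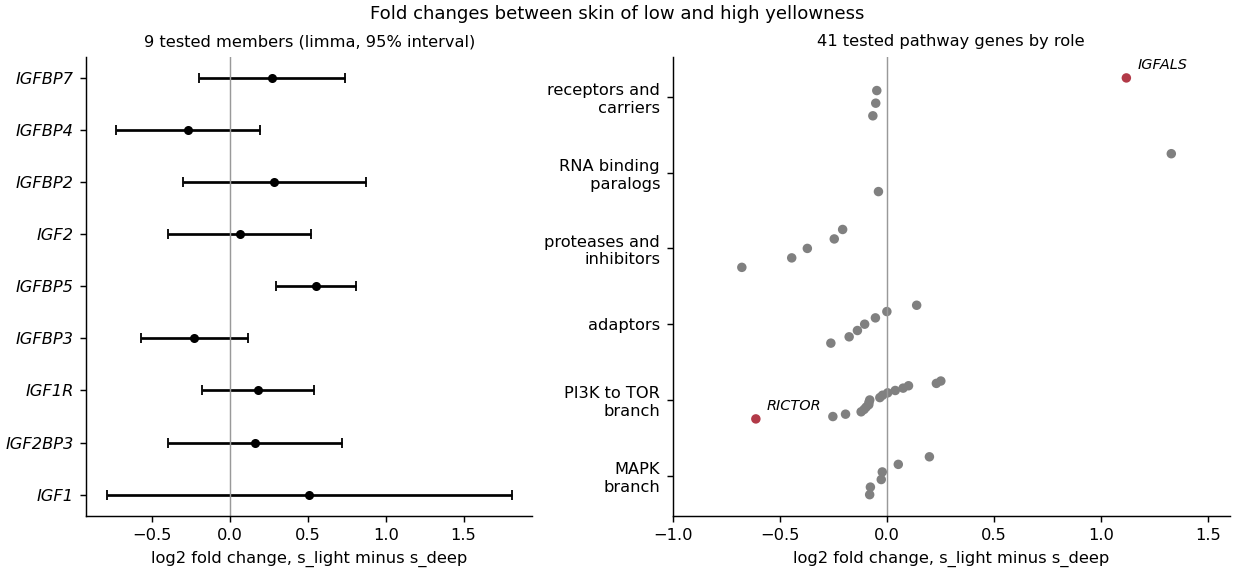
Log2 fold changes, s_light minus s_deep (x axes), of the 9 tested members with 95% intervals from limma (left) and of the 41 tested pathway genes by role (right; red marks an unadjusted p under 0.05, and the grey point farthest to the right is IGF2BP1). The interval of IGFBP5, 0.29 to 0.81, is the only one among the members that does not cross 0.

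IGFALS encodes the acid-labile subunit, which joins IGF and IGFBP3 or IGFBP5 in a stable complex in blood. IGFALS was read at 0.45 FPKM in s_deep6402, 0.29 in s_deep6403 and 0.41 in s_deep7858, beside 0.85 in s_light6575, 1.18 in s_light6971 and 0.82 in s_light8275. Every s_light value was above every s_deep value, at a low level in both groups. For IGFALS the log2 difference was 1.12 (SE 0.32, unadjusted p = 0.00936, adjusted p = 0.527, limma), and it was 1.03 with the W-linked score as a covariate. With 1 FPKM added in place of 0.1 it was 0.49. The gene is in the study's list as well, so its separation is not independent of that selection.

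Other receptor genes listed for the pathway were read at FPKM similar to or higher than IGF1R, and their groups overlapped. INSR, the insulin receptor gene, was read at between 11.34 and 13.97 FPKM with a log2 difference of -0.07 (SE 0.13). INSRR, the gene of a related receptor that senses alkaline fluid in mammals, was read at 13.73 FPKM in s_deep6402 and 26.69 FPKM in s_deep6403, with the other birds from 17.65 to 20.42 FPKM, with a log2 difference of -0.05 (SE 0.23). IGF2R, whose product sorts lysosomal enzymes and in chicken lacks the strong IGF2 binding known from mammals, was read at between 5.92 and 6.96 FPKM.

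Among the genes for proteases that cut binding proteins and their inhibitors, HTRA1 was by far the most abundant. HTRA1, a secreted serine protease, was read at 501.31 FPKM in s_deep7858 and at between 212.89 and 281.53 FPKM in the other 5 birds, with a log2 difference of -0.21 (SE 0.33, adjusted p = 0.995, limma). ADAM12, a metalloprotease gene, was read at between 3.35 and 8.71 FPKM with a log2 difference of -0.37 (SE 0.38). PAPPA, the gene of the protease of IGFBP4, was read at 2.47 FPKM in s_deep6402, 3.01 in s_deep6403 and 2.1 in s_deep7858, beside 1.1 in s_light6575, 2.46 in s_light6971 and 1.3 in s_light8275. The fold change of PAPPA was -0.68 on the log2 scale (SE 0.34, adjusted p = 0.833, limma), and s_light6971 lay inside the s_deep range. All 5 tested genes of this group, proteases and inhibitors alike, had log2 fold changes below 0, from -0.68 to -0.21. Among all 15900 genes tested, 8557 were below 0. None of the 5 had an unadjusted p under 0.05.

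Downstream of the receptor, no gene passed the FDR and RICTOR alone had an unadjusted p under 0.05. The 7 tested adaptor genes had log2 differences between -0.26 and 0.14, and the most abundant of them were GRB2 (mean 70.0 FPKM, log2 difference 0.00), SHC1 (41.1 FPKM, -0.10) and SOS1 (12.1 FPKM, -0.14). Of the 17 genes of the PI3K to TOR branch, EIF4EBP1 (359.5 FPKM, -0.08) and RHEB (94.8 FPKM, 0.08) were among the most abundant. In the MAPK branch HRAS (76.4 FPKM, 0.20) and MAP2K1 (40.6 FPKM, -0.03) were. RICTOR, a subunit of a TOR complex, had an unadjusted p of 0.0199. RICTOR was read at 5.34 FPKM in s_deep6402, 5.94 in s_deep6403 and 4.12 in s_deep7858, beside 3.11 in s_light6575, 3.66 in s_light6971 and 3.12 in s_light8275. The log2 difference was -0.61 (SE 0.20, adjusted p = 0.673, limma), without overlap. RICTOR lies on the Z chromosome, of which cocks carry a pair and hens a single copy. It was highest in the 2 libraries low in W-linked genes, and its log2 fold change was -0.31 with the W-linked score as a covariate. That fit compares mainly s_deep7858, itself above every s_light bird, with the s_light birds. Whether the sex of the birds, which the labels do not give, has a part in the RICTOR difference was not tested.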

How the data were processed

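RNA from cloacal skin of 6 birds, 3 per group by the labels, was measured by RNA-seq. After removal of adaptor and poor reads, the authors deposited FPKM per gene, rounded to 2 decimals. The paper's methods name TopHat and the Gallus_gallus-5.0 reference, whereas the submitters' processing notes name HISAT2 2.0.4, Bowtie2 2.2.5, RSEM 1.1.12 and DESeq2 1.4.5. The files hold 18315 NCBI Gene IDs, of which 83.5% were matched to symbols in the RefSeq table of assembly GRCg7b, used for names and gene order only.

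Members and lists were chosen with earlier results of these data known. The 15900 genes that reached 0.1 FPKM on average were tested with limma 3.58.1 in R 4.3.3, with an intensity trend, on log2(FPKM + 0.1), since FPKM are not counts; the test was checked on simulated data. All members were named, with pathway genes at an unadjusted p under 0.05 and the 3 most abundant of each role, some of which are not reported here. The markers named singly were chosen after their values were seen. As alternatives, the pseudocount was set to 1 or 0.01, the filter was dropped or raised to 1 FPKM, libraries were rescaled (quantiles or median of ratios) or left out, the trend was dropped, and the W-linked score, the mean log2 level of W genes, was added as a covariate. Because that score set s_deep6402 and s_deep6403 apart from all other libraries, the covariate fit compared mainly s_deep7858 with the s_light birds. Likeness over libraries was computed with Python 3.11.15. The birds were separate animals, and wing numbers do not pair them. GHR, IRS1 and IGFBPL1 were not analysed here.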

Additional observations from a re-analysis of the deposited data

How the results depend on the processing

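The number of genes past an absolute log2 fold change of 1 and an FDR of 0.05 was 7 and became 11 with a pseudocount of 1, 12 with median-of-ratios scaling, 3 with the W-linked score as a covariate and 0 without s_deep6402 and s_deep6403. Leaving out single libraries moved it to between 0 and 69, the latter without s_deep7858, and the number at an adjusted p of 0.001, otherwise 0, lay between 0 and 15. No member passed an FDR of 0.05 under any alternative. The sign of the fold change held under every alternative for the 8 other tested members, but IGF2, 0.06 on the log2 scale, turned to -0.34 with the W-linked score as a covariate, to -0.33 without s_deep6402 and s_deep6403, and lay between -0.082 (without s_deep6403) and 0.26 when single libraries were left out. The 6 neighbouring pairs past an adjusted p of 0.05 in the order of levels fell to 0 whichever library was left out, since 5 libraries cannot give a p below 0.0625. The log2 difference of IGF2 over IGFBP5 turned to -0.0066 without s_deep7858. The log2 ratio of IGFBP5 to IGFBP2, s_light minus s_deep, lay between -0.082 (without s_light6971) and 0.51. Median log2 fold changes over all genes stayed between -0.03 and -0.01. No paired analysis was possible because the groups share no wing number. The low levels of IGF1 and IGFBP1, no more than 0.3 and 0.11 FPKM, limit what can be compared in them.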

Other observations

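No member that averaged 1 FPKM or more varied by 2 times or more between its lowest and highest library, so the search for genes of like pattern was widened, after the data were seen, to a ratio of 1.5. Pearson's r of log2(FPKM + 0.1) over the 6 libraries was used, among 11168 named genes that averaged 1 FPKM or more. With 6 points many genes come close to any pattern, and for IGFBP5 21 genes had r of at least 0.95. The genes most alike to IGFBP5 were INAFM2 (r = 0.984), TRIL (r = 0.981) and NINJ2 (r = 0.978). TRIL, the gene of an accessory protein of Toll-like receptor 4, stood at 1.42 to 1.84 FPKM in s_deep birds and 2.95 to 4.22 FPKM in s_light birds. For IGFBP7 the closest gene was DUSP1, a phosphatase gene induced by stress and growth factors (r = 0.992), which was read at 71.78 FPKM in s_deep6402, where IGFBP7 was lowest, and at 290.1 FPKM in s_light6575, where IGFBP7 was highest.

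IGFBP2 ran nearly opposite to the summed fibroblast markers from bird to bird. The 6 fibroblast genes (COL1A1, COL1A2, COL3A1, DCN, LUM and PDGFRA) summed to 5079 FPKM in s_light6971 and to 3961 FPKM in s_deep7858, the birds with the lowest and the next lowest IGFBP2. The sums were 2818 and 2657 FPKM in s_deep6402 and s_deep6403, which followed in IGFBP2. They were 2584 and 2521 FPKM in s_light6575 and s_light8275, which had the highest IGFBP2 at 84.27 and 75.78 FPKM. Only this last pair broke the reversed order of the sum, which the 3 collagen genes dominate. Single genes departed from it: LUM was highest in s_deep6403, at 361.7 FPKM, and COL3A1 was higher in s_light8275 than in s_deep6402 and s_deep6403, at 1045 against 957 and 772 FPKM. The pattern was noticed in the same values and was not tested.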
